A study of Mus musculus with 27 samples.

Results

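The genes described here are those whose response to a tumor medium differed between wild-type and TRAP1-deficient unpolarized mouse macrophages. Bone marrow-derived macrophages (BMDM) were grown from the femurs and tibias of C57BL/6 mice of about 4 months, described as female and either wild-type (WT) or TRAP1-deficient (TRAP1 KO), in a differentiation medium that held medium of L929 fibroblasts as the source of M-CSF. Without further polarization the cells are called M0 in the labels and Mφ here. They were kept for 48 h in control medium (DMEM) or in medium conditioned by malignant peripheral nerve sheath tumor cells (MPNST-CM), which was renewed after 24 h. The 4 groups were WT in control medium, WT in MPNST-CM, TRAP1 KO in control medium and TRAP1 KO in MPNST-CM, with 3 libraries each, all labelled batch1. No agent other than the medium was added to the Mφ groups, and nothing in the labels says how many mice gave the 3 libraries of a group, so p-values measure the spread between these libraries.

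The members were chosen by the interaction of genotype and medium, which is the response of TRAP1 KO Mφ to MPNST-CM minus the response of WT Mφ, each on the log2 scale. Of 13614 genes tested, 2683 (19.7%) passed an adjusted p of 0.05 for this difference by edgeR's quasi-likelihood test with Benjamini-Hochberg adjustment, 1112 (8.17%) with the higher and 1571 (11.5%) with the lower response in TRAP1 KO. Among them a gene was called lost when its response passed in WT and not in TRAP1 KO, gained when it passed in TRAP1 KO and not in WT, and reversed when it passed in both with opposite signs. These 3 classes held 2067 genes, 15.2% of those tested. The 491 genes (3.61%) with a response of the same sign in both genotypes, and 125 (0.918%) in which neither response passed alone, were counted and left out. Just inside the threshold lay Dyrk2 (adjusted p = 0.0499) and just outside lay Gbp9 (adjusted p = 0.05003).

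TRAP1 is the mitochondrial member of the HSP90 chaperone family and is known for lowering the activity of succinate dehydrogenase in tumor cells. Macrophages in tumors take on mixed programs, in which growth, lipid synthesis, chemokine secretion and migration can each change. Sterol synthesis is governed by the SREBP transcription factors, entry into S phase by E2F factors, and mitotic genes by the DREAM and MuvB complexes, which bind the CHR element in their promoters.

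The 12 Mφ libraries held 7037684 to 8452051 counts, and the count scale below is CPM, the count scaled to a common library size by TMM, which serves to compare libraries for 1 gene. Trap1 had 89 to 144 counts in each WT library and 0 in each of the 6 TRAP1 KO libraries. Xist, the X-inactivation transcript of female cells, stood at 327 to 514 CPM of the library total in WT and at 0.13 to 0.897 in TRAP1 KO. The level in TRAP1 KO goes against the label of female mice. The genotypes therefore differed in Xist as well as in Trap1, and the part of each in the results cannot be told apart in this design. Of the X-linked genes tested, 13.7% of 452 were in a class, against 15.4% of 12933 autosomal genes. The 8 macrophage markers summed to 9810 to 13900 CPM in every library. The neutrophil markers summed to 150 to 180.0 in WT control medium, 306 to 356 in WT MPNST-CM, 26.5 to 29.5 in TRAP1 KO control medium and 152 to 192 in TRAP1 KO MPNST-CM. Mmp8, with 192 to 2863 counts, carried most of that sum. On the same list S100a8 had 8 to 53 counts and S100a9 2 to 31. Ly6g, which was gained and rose in TRAP1 KO, had 0 to 16, and Retnlg was at 0 in all libraries. The endothelial list was at 18.3 to 23.4 in WT control medium and 56.2 to 60.9 in WT MPNST-CM. For TRAP1 KO it read 26.9 to 33 in control medium and 40.3 to 41.3 in MPNST-CM. Kdr, which passed the interaction, carried most of it with 125 to 487 counts, where Cdh5 had 0 to 7. In TRAP1 KO the basophil or mast cell list went from 3.2 to 5.27 CPM in control medium to 0.124 to 0.65 in MPNST-CM and the eosinophil list from 5.27 to 5.75 to 0.497 to 1.3, with Kit and Siglecf passing. The dendritic cell list was at 4.31 to 14.5, the B cell list at 1.85 to 4.35, and the Schwann or MPNST cell list at 5.09 to 7.56, and the T cell, fibroblast and erythroid lists stayed at 2.61 or less. The part of these cell types in the results was not tested.

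The response to MPNST-CM was wider in TRAP1 KO than in WT by count. MPNST-CM changed 2889 genes (21.2%) in WT Mφ and 4476 genes (32.9%) in TRAP1 KO Mφ. The gained class was the largest, with 1342 genes (9.86% of those tested), of which 569 (4.18%) rose and 773 (5.68%) fell in TRAP1 KO. The lost class held 443 genes (3.25%), 275 that rose (2.02%) and 168 that fell (1.23%) in WT. The reversed class held 282 genes (2.07%), of which 212 (1.56%) rose in WT and fell in TRAP1 KO and 70 (0.514%) did the opposite. The median response of the 773 genes that fell in TRAP1 KO alone was -1.03 there and 0.07 in WT, on the log2 scale. The median response of the 275 genes that rose in WT alone was 0.54 there and -0.12 in TRAP1 KO. Of these 275, 219 had an estimated TRAP1 KO response within 0.25 of 0 on the log2 scale, and 54 kept the WT sign. The confidence interval of the TRAP1 KO response lay well inside the size of the WT response for only 68 of the 275. The same held for 30 of the 168 lost genes that fell. For the others the lost call rests on a test not passed in TRAP1 KO, which does not show that the response was absent.

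**Figure D1:**
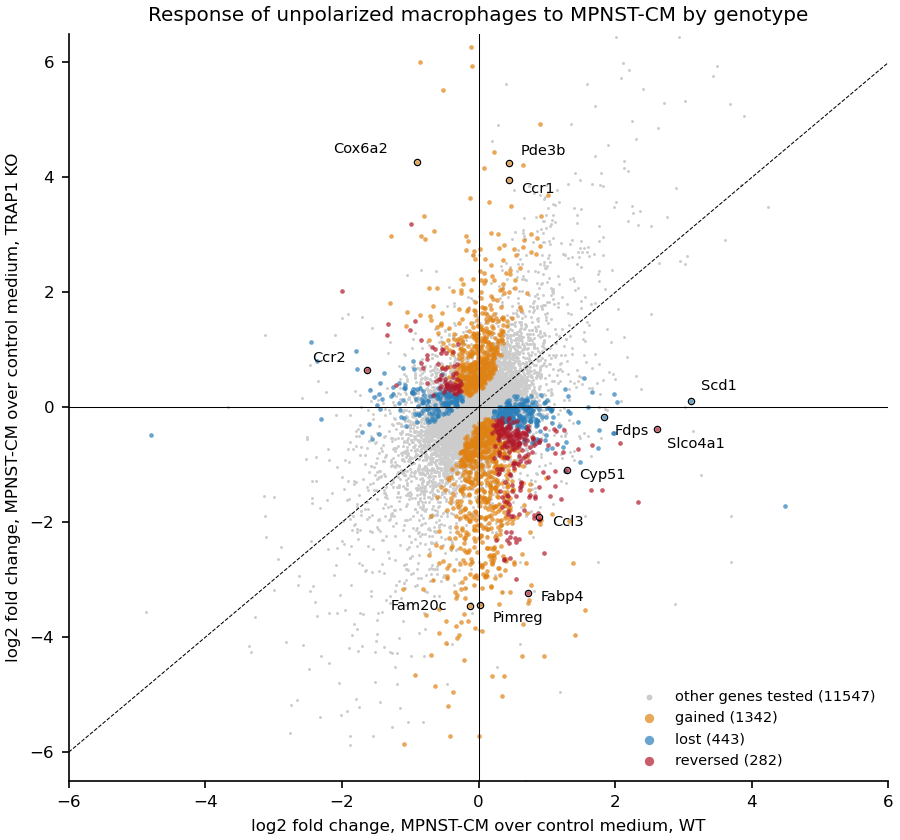
Each point is a gene, placed by its log2 fold change in MPNST-CM over control medium in WT (horizontal) and in TRAP1 KO (vertical), with lost genes in blue, gained genes in orange, reversed genes in red and other tested genes in grey. The dashed line marks equal responses, 23 genes lie outside the axes, and the reversed genes fill the quadrants of opposite sign with more of them (212 against 70) at lower right.

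The library numbered 1 stood apart from numbers 2 and 3 in all 4 groups, where the chi-square of its counts against theirs was 16 to 26.5 per degree of freedom and that between the others 2.11 to 3.42. Without the libraries numbered 1, an alternative chosen after seeing the data, the classes held 472 lost, 1417 gained and 304 reversed genes. Of these, 300 lost, 1032 gained and 201 reversed genes were in the same class as with all libraries, and no class member changed the sign of its interaction. In the Mφ libraries alone, the replicate number as a block took the lost class from 389 to 724 genes and the reversed class from 228 to 517. With the 3 libraries of batch2 added and no batch term the classes fell to 124 lost, 444 gained and 26 reversed genes.

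Sterol and fatty acid synthesis separated the genotypes in MPNST-CM. In WT Mφ 29 of 32 tested genes of this list rose in MPNST-CM (all genes tested: 11.3%), while in TRAP1 KO Mφ 4 rose and 11 fell (all genes tested: 14.8% and 18.1%). Of the 32 genes, 13 were lost and 11 were reversed, 75.0% in all, where 3.58% of all genes tested rose in WT and were lost or reversed. The list's median response was 1.11 in WT and -0.26 in TRAP1 KO on the log2 scale, and its median interaction was -1.46 (all genes tested: -0.01). In control medium the list's median genotype difference was -0.07 (all genes tested: 0.03), and 5 of 32 genes passed the test, near the 16.6% of all genes tested.

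Lss encodes lanosterol synthase, which closes the first sterol ring system. It stood at 8.46, 16.4 and 12.8 CPM in the 3 WT libraries in control medium and at 37.3, 60.3 and 49.4 CPM in MPNST-CM. The TRAP1 KO libraries read 12, 18.1 and 14.2 CPM in control medium and 10.1, 11.2 and 11 CPM in MPNST-CM. All 3 WT libraries in MPNST-CM lay above the other 9, and the TRAP1 KO libraries in MPNST-CM lay below those in control medium by a margin that did not pass the test. The log2 response was 1.97 in WT (SE 0.19, edgeR adjusted p = 2.52e-08) and -0.45 in TRAP1 KO (SE 0.20, adjusted p = 0.0939), a difference of -2.42 (SE 0.28, adjusted p = 2.67e-07).

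Hsd17b7, a sterol reductase of the later steps, was lost in the same way, with 13.2, 8.47 and 11.2 CPM in WT control medium, 43.3, 35 and 33.5 CPM in WT MPNST-CM, 8.25, 8.9 and 9.6 CPM in TRAP1 KO control medium and 7.74, 6.57 and 5.99 CPM in TRAP1 KO MPNST-CM. Its interaction was -2.16 (SE 0.25, edgeR adjusted p = 1.88e-07). Fdps makes farnesyl diphosphate, the branch point between sterols and protein prenylation. Its WT libraries moved from 24.7, 26.4 and 23.2 to 83.6, 90 and 92.9 CPM, and its TRAP1 KO libraries read 18.4, 24.3 and 20.9 CPM in control medium and 17.5, 20.2 and 19.1 CPM in MPNST-CM, overlapping between the media. Mvd, the decarboxylase that yields isopentenyl diphosphate, went from 13.4, 9.64 and 14.4 to 56.5, 44.6 and 47.4 CPM in WT, against 16, 16.2 and 17.1 CPM in control medium and 20.2, 20.8 and 16.7 CPM in MPNST-CM in TRAP1 KO. The interaction was -2.01 for Fdps (SE 0.16, edgeR adjusted p = 3.98e-10) and -1.76 for Mvd (SE 0.20, adjusted p = 1.65e-07), with a 95% interval for the TRAP1 KO response of -0.41 to 0.08 for Fdps and -0.07 to 0.52 for Mvd.

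Cyp51, the demethylase that acts on lanosterol, was reversed. Its WT libraries rose from 78.5, 65.4 and 78.2 CPM to 197, 177 and 170.2 CPM, and its TRAP1 KO libraries fell from 58.9, 73.3 and 61.3 CPM to 27.5, 31.7 and 31.1 CPM. In control medium the genotypes overlapped, and in MPNST-CM the lowest WT library was above every TRAP1 KO library. The responses were 1.29 in WT (edgeR adjusted p = 1.13e-10) and -1.10 in TRAP1 KO (adjusted p = 1.04e-09). Sqle, squalene epoxidase, rose by 1.25 on the log2 scale in WT and fell in TRAP1 KO (log2 response -0.39, edgeR adjusted p = 0.000424). Fads2, a desaturase of polyunsaturated fatty acids, rose by 0.94 in WT and fell in TRAP1 KO with a response of -1.12 (adjusted p = 4.83e-09).

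Scd1, the desaturase that makes monounsaturated fatty acids, had the largest interaction among the named lost genes, and its genotypes stood apart in control medium. WT libraries read 4.42, 6.78 and 4.33 CPM in control medium and 48.3, 43.1 and 42 CPM in MPNST-CM. TRAP1 KO libraries read 48.8, 48.7 and 49.3 CPM in control medium and 45.6, 59.2 and 54.3 CPM in MPNST-CM. The TRAP1 KO level in control medium was at or above the WT range in MPNST-CM, and the genotype difference in control medium was 3.25 (edgeR adjusted p = 8.15e-14). The response was 3.11 in WT (SE 0.16) and 0.12 in TRAP1 KO (SE 0.13), with an interaction of -2.99 (edgeR adjusted p = 2.54e-11).

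Short motifs were searched in the promoters of these genes, which were taken from RefSeq (build GRCm38.p6, 250 bases before to 50 after the start). The CCAAT box, the letters CCAAT on either strand, bound by NF-Y, was chosen after the values were seen. It stood in 13 of the 16 promoters found for the 24 class members of the list (81.2%), against 38.7% of the promoters of all genes tested. It was not particular to this list. Class members of the mitosis list held it in 21 of 26 promoters (80.8%) and those of the DNA replication list in 15 of 23 (65.2%). The integrated stress response list had 5 of 5, the HIF-1 list 2 of 5 (40.0%) and the interferon-stimulated list 1 of 6 (16.7%). Lss (chr10:76531355-76531654, plus strand), Hsd17b7 (chr1:169969156-169969455, minus strand) and Cyp51 (chr5:4104648-4104947, minus strand) are shown because the first pair were lost and the third was reversed, each with CCAAT or its reverse complement in capitals.
Lss: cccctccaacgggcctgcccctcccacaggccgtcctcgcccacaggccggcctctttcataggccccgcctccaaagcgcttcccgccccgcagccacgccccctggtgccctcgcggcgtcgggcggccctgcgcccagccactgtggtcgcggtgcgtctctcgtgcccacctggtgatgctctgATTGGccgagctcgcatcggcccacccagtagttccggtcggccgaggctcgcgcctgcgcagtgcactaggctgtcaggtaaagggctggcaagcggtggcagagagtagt
Hsd17b7: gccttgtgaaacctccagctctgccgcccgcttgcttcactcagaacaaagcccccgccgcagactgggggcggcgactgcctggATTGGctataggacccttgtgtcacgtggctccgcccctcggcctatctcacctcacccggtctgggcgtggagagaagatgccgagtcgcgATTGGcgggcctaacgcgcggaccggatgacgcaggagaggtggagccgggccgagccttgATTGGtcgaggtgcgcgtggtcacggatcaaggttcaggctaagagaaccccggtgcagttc
Cyp51: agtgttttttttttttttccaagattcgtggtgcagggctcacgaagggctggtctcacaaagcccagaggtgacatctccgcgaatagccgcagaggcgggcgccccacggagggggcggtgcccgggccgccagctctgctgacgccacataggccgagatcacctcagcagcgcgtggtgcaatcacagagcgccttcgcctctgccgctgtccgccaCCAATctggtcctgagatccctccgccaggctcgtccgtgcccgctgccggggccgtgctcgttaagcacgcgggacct

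A sterol regulatory element written as TCACNCCAC, also chosen afterwards, was in 1 of the 16 (6.25%) and in 1.02% of all promoters tested. A match of letters is a description of the sequence and was not tested as a binding site.

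DNA replication genes moved in opposite directions in the genotypes. Of 33 tested, 21 rose in WT Mφ in MPNST-CM (all genes tested: 11.3%), whereas 27 fell in TRAP1 KO Mφ (all genes tested: 18.1%). The list held 18 reversed genes, 8 gained genes that fell and 3 lost genes, 87.9% in a class (all genes tested: 15.2%). Its median response was 0.46 in WT and -1.08 in TRAP1 KO. In these bulk libraries, fewer dividing cells and less RNA per cell of such genes cannot be told apart.

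Mcm3, a subunit of the replicative helicase, read 152, 162 and 166 CPM in WT control medium and 259.7, 257 and 254 CPM in WT MPNST-CM. In TRAP1 KO it read 70.1, 77.5 and 78.5 CPM in control medium and 43.9, 40 and 41.6 CPM in MPNST-CM. The 4 groups did not overlap, and both TRAP1 KO groups were below both WT groups. The log2 response was 0.68 in WT (SE 0.07, edgeR adjusted p = 1.09e-07) and -0.85 in TRAP1 KO (SE 0.08, adjusted p = 1.29e-09).

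Tk1, the thymidine kinase of S phase, showed a wider fall. Its counts went from 89.5, 88.1 and 83.6 to 137, 126 and 115 CPM in WT and from 30.9, 29.8 and 31.3 to 6.99, 6.45 and 5.48 CPM in TRAP1 KO. The interaction was -2.81 (SE 0.17, edgeR adjusted p = 1.69e-12). Tyms, thymidylate synthase, had responses of 0.41 in WT and -1.53 in TRAP1 KO, and Rad51ap1, a cofactor of homologous recombination, 0.55 and -2.35. Mcm10, an initiation factor, was placed in the gained class because its WT response of 0.35 missed the threshold (edgeR adjusted p = 0.0525) while its TRAP1 KO response was -2.59 (adjusted p = 6.36e-12).

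Mitotic genes differed from replication genes in WT, where MPNST-CM moved 3 of 32 up and 1 down (all genes tested: 11.3% and 9.96%). In TRAP1 KO 31 of the 32 fell (all genes tested: 18.1%). The list held 27 gained genes that fell and 3 reversed genes, 93.8% in a class, where 7.24% of all genes tested fell in TRAP1 KO and were gained or reversed. The median response was 0.16 in WT and -2.36 in TRAP1 KO.

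Plk1, a kinase of mitotic entry, was at 88.9, 94.5 and 98.8 CPM in WT control medium, 120.1, 105 and 106 CPM in WT MPNST-CM, 39, 43.1 and 40.9 CPM in TRAP1 KO control medium and 7.49, 7.3 and 7.9 CPM in TRAP1 KO MPNST-CM. Ube2c, the ubiquitin-conjugating enzyme of the anaphase-promoting complex, was at 169, 194 and 202 CPM in WT control medium, 202, 249.5 and 226 CPM in WT MPNST-CM, 95.2, 109 and 118 CPM in TRAP1 KO control medium and 14.7, 21.4 and 20.4 CPM in TRAP1 KO MPNST-CM. In both genes the TRAP1 KO libraries in MPNST-CM were the lowest 3 of the 12. The TRAP1 KO response was -2.44 for Plk1 (SE 0.13, edgeR adjusted p = 3.43e-14) and -2.51 for Ube2c (SE 0.12, adjusted p = 3.81e-15), with interactions of -2.67 and -2.77.

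Ccnb1, cyclin B, was reversed, at 54.2, 58.5 and 64.8 CPM in WT control medium, 79.5, 73.8 and 76.2 CPM in WT MPNST-CM, 32.9, 39 and 30.4 CPM in TRAP1 KO control medium and 4.74, 4.74 and 6.88 CPM in TRAP1 KO MPNST-CM. Pbk, a mitotic kinase, read 47.3, 53 and 46.3 CPM in WT control medium, 71.7, 67 and 63 CPM in WT MPNST-CM, 17.5, 16.9 and 16.4 CPM in TRAP1 KO control medium and 2.37, 3.16 and 2.67 CPM in TRAP1 KO MPNST-CM. Both genes rose in WT and fell in TRAP1 KO without overlap between the media in either genotype. Their WT responses were small, 0.37 for Ccnb1 (edgeR adjusted p = 0.0287) and 0.46 for Pbk (adjusted p = 0.00323), beside TRAP1 KO responses of -2.64 and -2.62. Cdca3, a factor that promotes mitotic entry, followed them with 0.38 and -2.65. Pimreg, Kif4, Ttk, Kntc1 and Birc5, which act in chromosome segregation and cytokinesis, were gained, with TRAP1 KO responses of -3.44, -3.12, -2.79, -2.68 and -2.57 and WT responses between 0.02 and 0.41.

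The genotypes already differed for both lists in control medium, in which 16.6% of all genes tested and 7.97% in the lower direction passed. TRAP1 KO was lower for 30 of 33 replication genes and 29 of 32 mitotic genes there, with median differences of -1.17 and -1.02. The interaction and this contrast share the control libraries.

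**Figure D2:**
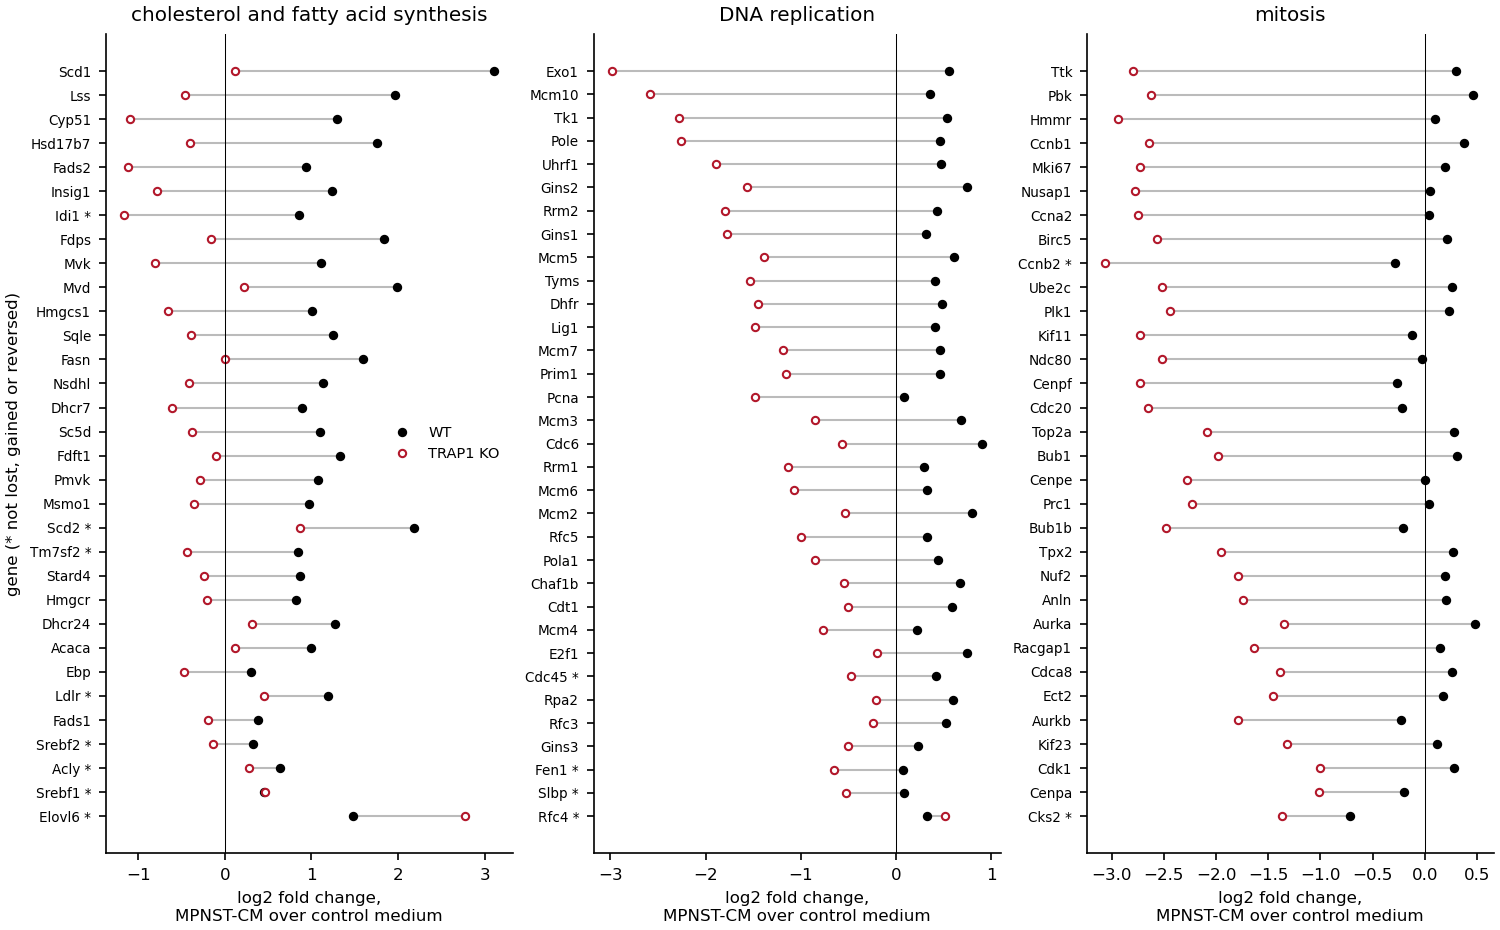
Each row is a tested gene of the cholesterol and fatty acid synthesis, DNA replication or mitosis list, with its log2 fold change in MPNST-CM over control medium in WT (filled) and TRAP1 KO (open), joined by a line and ordered by the interaction. An asterisk marks genes in no class, and the WT points lie right of the TRAP1 KO points in all rows but Rfc4, Elovl6 and Srebf1.

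Promoters of these genes were read in the same way. The CHR element, TTTGAA on either strand, was in 20 of the 26 promoters found for class members of the mitosis list (76.9%) and in 12.5% of the promoters of all genes tested. The E2F motif, TTTCGCGC or TTTGGCGC on either strand, was in 7 of the 23 promoters of the replication list's class members (30.4%), against 1.58% of all. Mcm3 (chr1:20820263-20820562, minus strand) is shown with its E2F match in capitals, and Plk1 (chr7:122159185-122159484, plus strand) and Ube2c (chr2:164769679-164769978, plus strand) with their CHR match in capitals.
Mcm3: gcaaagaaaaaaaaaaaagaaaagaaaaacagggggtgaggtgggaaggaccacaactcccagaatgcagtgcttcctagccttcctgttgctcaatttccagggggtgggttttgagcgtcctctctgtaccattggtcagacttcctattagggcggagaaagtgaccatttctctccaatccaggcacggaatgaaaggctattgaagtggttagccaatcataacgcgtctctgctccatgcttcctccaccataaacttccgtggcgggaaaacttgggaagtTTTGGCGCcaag
Plk1: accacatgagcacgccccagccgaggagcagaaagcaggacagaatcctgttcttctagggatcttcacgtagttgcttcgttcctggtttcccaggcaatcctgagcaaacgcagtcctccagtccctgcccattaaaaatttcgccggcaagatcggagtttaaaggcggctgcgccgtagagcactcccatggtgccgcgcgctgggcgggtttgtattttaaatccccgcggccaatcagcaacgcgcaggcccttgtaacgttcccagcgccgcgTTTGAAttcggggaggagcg
Ube2c: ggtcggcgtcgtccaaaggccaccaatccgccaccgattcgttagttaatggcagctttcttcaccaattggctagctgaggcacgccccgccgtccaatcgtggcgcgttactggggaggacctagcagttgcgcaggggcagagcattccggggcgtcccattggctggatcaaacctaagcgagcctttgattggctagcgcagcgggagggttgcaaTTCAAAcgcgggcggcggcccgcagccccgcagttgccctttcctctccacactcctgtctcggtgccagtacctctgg

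Some chemokines, cytokines and growth factors rose in WT Mφ and fell in TRAP1 KO Mφ, among lists that were mixed. Of 31 tested NF-kB inflammatory genes, 10 were in a class (32.3%, all genes tested: 15.2%) and 4 of them were reversed (Ccl3, Ccl4, Tnf and Il1rn; all genes tested: 2.07%), while another 10 changed in the same direction in both genotypes by more in TRAP1 KO. Of these 10, the chemokines Cxcl2 and Ccl9 rose and Ccl5 and Cxcl16 fell. Of the 24 tested secreted angiogenic factors that the study names, 7 were in a class (29.2%) and 4 of them were reversed (Ccl3, Tnf, Pdgfa and Vegfb), so that Ccl3 and Tnf count in both lists. Another 5 changed in the same direction in both genotypes by more in TRAP1 KO (all genes tested: 3.44%). Vegfa, Pf4 and Mmp8 rose and Cxcl10 and Cxcl16 fell. The angiogenic list joins factors that the study picked from this RNA-seq with factors of its protein array of macrophage media, so its direction is not independent evidence.

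Ccl3, a chemokine that binds Ccr1, read 73.1, 88.7 and 90.6 CPM in WT control medium and 149, 167 and 152 CPM in WT MPNST-CM. In TRAP1 KO it read 133, 149 and 152 CPM in control medium and 34.3, 42.2 and 38.6 CPM in MPNST-CM. The WT media did not overlap, and the TRAP1 KO libraries in MPNST-CM were the lowest 3 of the 12. The responses were 0.89 (SE 0.10, edgeR adjusted p = 4.94e-07) and -1.91 (SE 0.11, adjusted p = 1.14e-13).

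Ccl4, a related chemokine, moved likewise, from 54.8, 61 and 64.9 to 89.4, 116 and 111 CPM in WT and from 104, 103 and 105 to 25.8, 28.8 and 30.9 CPM in TRAP1 KO. Il1rn, the IL-1 receptor antagonist, had responses of 1.01 in WT and -1.22 in TRAP1 KO, with an interaction of -2.23 (edgeR adjusted p = 1.94e-11). Tnf went from 26.9, 32.2 and 31.1 to 57.3, 45.1 and 52.4 CPM in WT and from 29.8, 26.8 and 30.4 to 19.5, 21.5 and 19.9 CPM in TRAP1 KO. The genotypes overlapped for Tnf in control medium, and the interaction was -1.29 (SE 0.19, edgeR adjusted p = 9.12e-06).

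Among the growth factors, Vegfb was at 33.1, 35.4 and 33.9 CPM in WT control medium, 64.6, 50.9 and 56.8 CPM in WT MPNST-CM, 62, 64.7 and 70.9 CPM in TRAP1 KO control medium and 41.6, 44 and 37.4 CPM in TRAP1 KO MPNST-CM. Pdgfa, a ligand of PDGF receptors, was at 51, 56 and 54.3 CPM in WT control medium, 71.9, 73.6 and 75 CPM in WT MPNST-CM, 53.8, 53.8 and 54.3 CPM in TRAP1 KO control medium and 36.1, 34.7 and 36 CPM in TRAP1 KO MPNST-CM. For Pdgfa the control libraries of the genotypes were almost level (difference 0.00), and the media separated them in opposite directions, 0.45 in WT and -0.60 in TRAP1 KO (edgeR adjusted p of the interaction = 7.97e-07). Vegfb responded by 0.75 in WT and -0.68 in TRAP1 KO (interaction adjusted p = 2.25e-08). Hbegf, a ligand of the EGF receptor, was gained, with a TRAP1 KO response of -3.81 (SE 0.22) from 8.25, 9.82 and 8.68 to 0.624, 0.608 and 0.637 CPM. Its WT libraries stayed between 1.83 and 3.19 CPM, and the TRAP1 KO libraries in MPNST-CM rested on few counts.

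Fabp4, a fatty acid carrier of macrophages, had the largest interaction among the named reversed genes. WT libraries read 18.9, 22 and 19.9 CPM in control medium and 26.3, 38.5 and 35.5 CPM in MPNST-CM, and TRAP1 KO libraries 81.7, 97.5 and 93 CPM in control medium and 6.87, 11.7 and 10.3 CPM in MPNST-CM. The order of the genotypes was turned, since TRAP1 KO was the higher in control medium and the lower in MPNST-CM. The responses were 0.72 (edgeR adjusted p = 0.000666) and -3.23 (adjusted p = 3.52e-15). Fabp5, a related carrier, had responses of 1.15 in WT and -0.64 in TRAP1 KO, and Lpcat3, which remodels phospholipids, 0.31 and -0.39. Of 28 tested genes of lipid efflux, uptake and droplets, 10 were in a class (35.7%, all genes tested: 15.2%), with 1 lost gene that fell, 5 gained genes that fell, 1 gained gene that rose and 3 reversed genes that rose in WT.

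Slco4a1, an organic anion transporter, rose further in WT than the other named reversed genes. It moved from 22, 29.1 and 28 to 142, 171 and 168 CPM in WT and from 46.8, 50.3 and 53.1 to 35.8, 39.2 and 39.9 CPM in TRAP1 KO. The log2 response was -0.39 in TRAP1 KO (edgeR adjusted p = 0.0124) against 2.61 in WT. Tfrc, the transferrin receptor, was at 44.8, 50.6 and 49.8 CPM in WT control medium, 72.3, 81.3 and 70.4 CPM in WT MPNST-CM, 76.3, 86 and 89.7 CPM in TRAP1 KO control medium and 30.5, 31.4 and 35.3 CPM in TRAP1 KO MPNST-CM, with responses of 0.63 and -1.38 (edgeR adjusted p of the interaction = 3.43e-12). Steap3, the ferrireductase of the transferrin cycle, was also reversed (0.35 and -1.07), and Slc11a2, the iron transporter DMT1, was gained with 0.23 in WT and -0.65 in TRAP1 KO. Of 18 tested iron and heme genes 9 were in a class (50%, all genes tested: 15.2%).

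Some genes of the endoplasmic reticulum and lysosome were also among the reversed. Hspa5, the main chaperone of the endoplasmic reticulum, responded by 0.44 in WT and -0.18 in TRAP1 KO, and Calr, calreticulin, by 0.57 and -0.38. Tcirg1, a subunit of the proton pump of lysosomes, responded by 0.22 and -0.88, and Ctsz, a cathepsin, by 0.37 and -0.86. The WT libraries of Tcirg1 overlapped between the media. Canx, calnexin, was lost with 0.20 in WT and -0.17 in TRAP1 KO, and Sdf2l1, a further protein of the endoplasmic reticulum, was gained with 0.19 and -0.94. Lamp2, of the lysosomal list, was reversed the other way, with -0.38 in WT and 0.29 in TRAP1 KO. Of 26 tested endoplasmic reticulum genes 5 were in a class (19.2%), and of 30 lysosomal genes 10 (33.3%), against 15.2% of all genes tested. The named genes do not stand for the endoplasmic reticulum list, of which 10 members rose and 3 fell in TRAP1 KO (all genes tested: 14.8% and 18.1%).

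The 70 genes that fell in WT and rose in TRAP1 KO included a chemokine receptor and an integrin of leukocyte traffic. Ccr2, the receptor through which monocytes follow Ccl2, fell in WT from 358, 369.6 and 360.1 CPM to 102, 126 and 121 CPM. In TRAP1 KO it rose from 198, 199 and 182 CPM to 331, 279 and 299 CPM. WT was the higher genotype in control medium and the lower in MPNST-CM, with no overlap in either. The interaction was 2.29 (SE 0.17, edgeR adjusted p = 1.05e-10).

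Itgal, the alpha chain of LFA-1, was at 54.3, 58.8 and 54.3 CPM in WT control medium, 29.2, 25.7 and 28.2 CPM in WT MPNST-CM, 9.5, 10.6 and 12.8 CPM in TRAP1 KO control medium and 24.1, 28.7 and 30.7 CPM in TRAP1 KO MPNST-CM. The genotypes stood far apart in control medium (difference -2.35) and overlapped in MPNST-CM. Tspan13, a tetraspanin, Gab1, an adaptor of growth factor receptors, and Prune2 had interactions of 2.02, 1.73 and 1.67. Mxi1, a repressor of Myc targets that HIF-1 induces, responded by -0.48 in WT and 0.94 in TRAP1 KO. Pck2, the mitochondrial phosphoenolpyruvate carboxykinase, responded by -0.49 and 0.48 (edgeR adjusted p of the interaction = 3.86e-06).

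**Figure D3:**
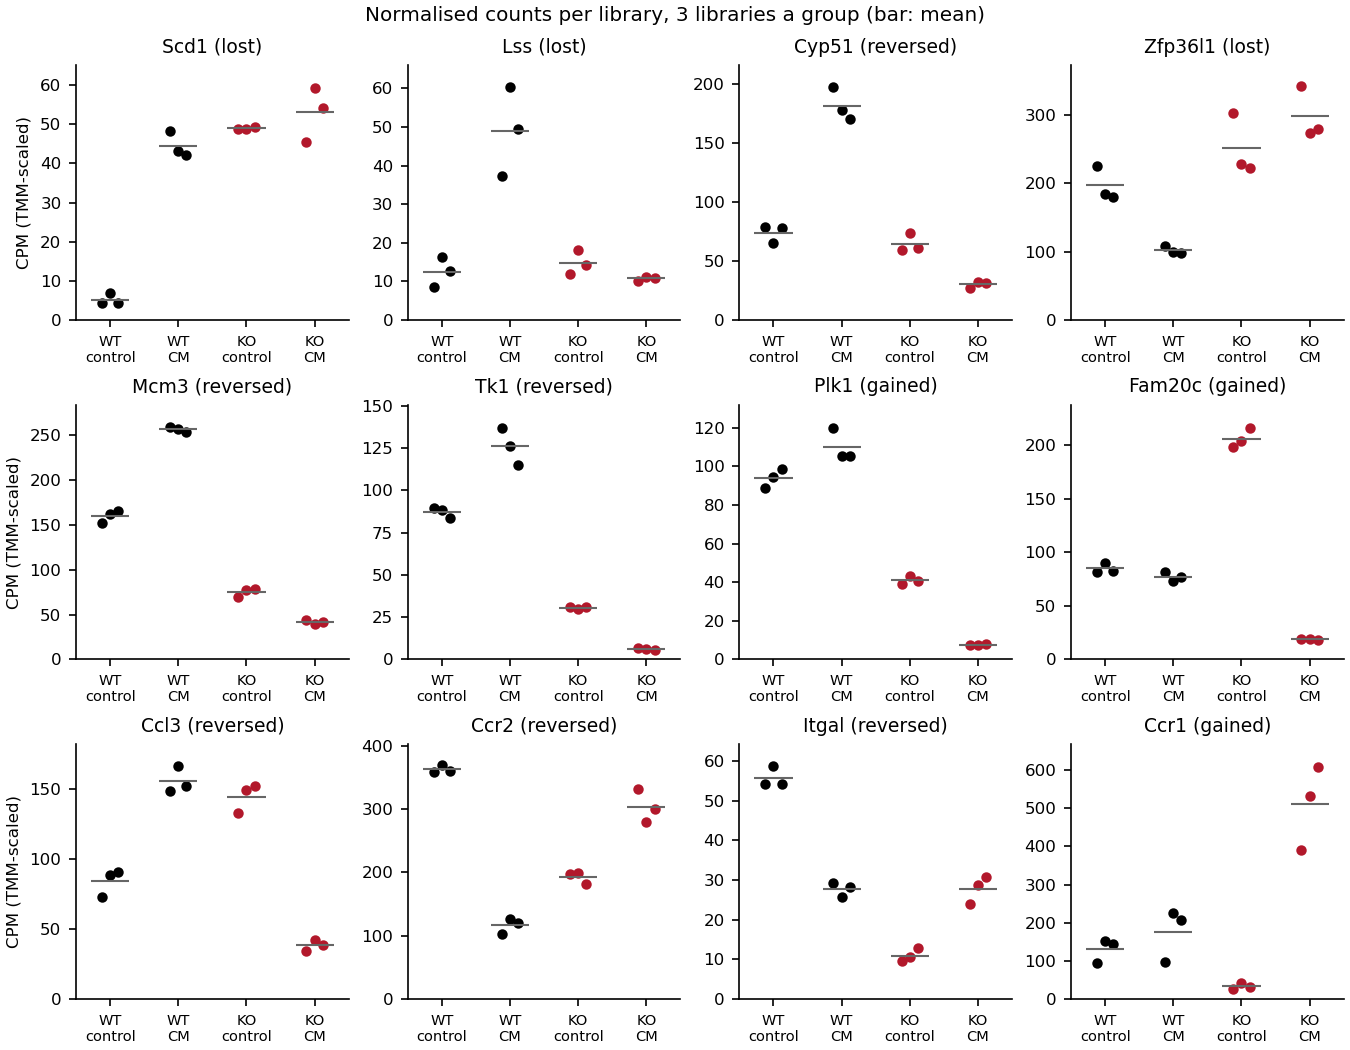
Each panel shows the TMM-scaled CPM of 1 gene in the 12 Mφ libraries, WT in black and TRAP1 KO in red, with 3 libraries in control medium and 3 in MPNST-CM (CM) for each genotype and a bar at the mean. The WT and TRAP1 KO pairs run in opposite directions for Cyp51, Mcm3, Tk1, Ccl3, Ccr2 and Itgal, while Fam20c and Ccr1 change in TRAP1 KO.

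Among the named genes that rose in TRAP1 KO Mφ alone, the largest interaction was that of Cox6a2, the muscle-type isoform of a cytochrome c oxidase subunit. Its TRAP1 KO libraries read 1.5, 1.31 and 1.97 CPM in control medium and 30.6, 31.7 and 31.1 CPM in MPNST-CM. The 6 WT libraries read 0.216 to 1.25 CPM. Only the 3 TRAP1 KO libraries in MPNST-CM stood clear of the low counts, and the TRAP1 KO response was 4.28 (SE 0.28, edgeR adjusted p = 1.97e-12).

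Pde3b, a phosphodiesterase that breaks down cyclic AMP, read 14.7, 14.3 and 10.7 CPM in WT control medium and 18.5, 18.2 and 17 CPM in WT MPNST-CM. In TRAP1 KO it went from 5.5, 4.84 and 3.55 CPM to 97.4, 80.3 and 86.9 CPM. TRAP1 KO was below WT in control medium and above it in MPNST-CM. The WT response of 0.44 just missed the threshold (edgeR adjusted p = 0.0575), and the interaction was 3.80 (SE 0.24, adjusted p = 7.02e-12).

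Ccr1, a receptor of Ccl3, varied between WT libraries, with 94.8, 152 and 143 CPM in control medium and 97.1, 225 and 206 CPM in MPNST-CM. In TRAP1 KO it rose from 27.4, 41.6 and 30.2 CPM to 391, 533 and 607 CPM. The WT media overlapped and the TRAP1 KO media did not, and the TRAP1 KO response was 3.95 (SE 0.31, edgeR adjusted p = 8.39e-09). Ptger2, a prostaglandin E2 receptor, rose in TRAP1 KO from 10, 9.42 and 10.9 to 67.8, 77.5 and 80.9 CPM and overlapped between the media in WT. Slfn1, a Schlafen family gene whose paralogs can share reads, and Bank1, a signaling scaffold known from B cells, had TRAP1 KO responses of 2.93 and 2.73, while the B cell markers Cd79a and Ighm were at 0 and Cd79b had 13 to 35 counts in the 12 libraries.

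Cd86 and Cd80 rose in TRAP1 KO alone, whereas most other genes of the same MHC class II list fell in both genotypes. H2-DMb2 did not fall, with responses of 0.07 in WT and 1.09 in TRAP1 KO. Cd86, a costimulatory ligand of T cells, was at 18.9, 20.7 and 18.8 CPM in WT control medium, 13.8, 21.4 and 18.9 CPM in WT MPNST-CM, 17.3, 25.3 and 23.1 CPM in TRAP1 KO control medium and 74.9, 94.6 and 101 CPM in TRAP1 KO MPNST-CM. Cd80, its partner ligand, had a TRAP1 KO response of 1.57 and an interaction of 1.40 (edgeR adjusted p = 0.0134). Of 11 tested genes of this list these 2 were in a class (18.2%), and H2-Aa, H2-Ab1, H2-Eb1, Cd74 and Cd40 fell in both genotypes by more in TRAP1 KO, with a list median of -0.99 in WT and -1.72 in TRAP1 KO. The Fc receptors Fcgr3, Fcgr4 and Fcgr1 rose in TRAP1 KO by 1.10, 0.96 and 0.64, with WT responses of 0.14, 0.27 and 0.14 that did not pass. Itgam, the integrin CD11b and a macrophage marker, went from 328, 419.9 and 407 to 921, 1045 and 1139 CPM in TRAP1 KO and overlapped between the media in WT. Folr2, a folate receptor of macrophages, was gained in the other direction (-0.76 in TRAP1 KO). Of 27 tested complement and scavenger receptor genes 7 were in a class (25.9%), 6 of them gained and risen, where 4.69% of all genes tested rose in TRAP1 KO and were gained or reversed.

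Named genes of serine synthesis and amino acid transport, which the transcription factor ATF4 induces under stress, rose in TRAP1 KO. Phgdh, the first enzyme of serine synthesis, read 2.09, 1.69 and 2.39 CPM in WT control medium, 3.36, 3.23 and 2.05 CPM in WT MPNST-CM, 1.13, 0.785 and 0.395 CPM in TRAP1 KO control medium and 8.36, 8.64 and 9.68 CPM in TRAP1 KO MPNST-CM. The counts were low outside TRAP1 KO in MPNST-CM, and the interaction was 3.03 (SE 0.49, edgeR adjusted p = 3.46e-05). Psph, the last enzyme of that path, and Slc7a5, a transporter of large neutral amino acids, had TRAP1 KO responses of 1.74 and 2.66, with WT responses of 0.33 and 0.55 (adjusted p = 0.271 and 0.168). Psat1, also of serine synthesis, responded alike in WT and TRAP1 KO (0.48 and 0.59, edgeR adjusted p of the interaction = 0.744), as did Slc3a2 (0.40 and 0.60, adjusted p = 0.382). Of 28 tested genes of the integrated stress response 7 were in a class (25.0%, all genes tested: 15.2%), and another 10 rose or fell in both genotypes by more in TRAP1 KO. The interaction passed in the higher direction for 16 of the 28 (all genes tested: 8.17%) and in the lower for 2 (11.5%), Gdf15 and Atf3.

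Hypoxia-response genes split between the classes and shared responses. Bnip3, a mitophagy receptor, went from 13.4, 14.5 and 15.3 to 50.1, 54.6 and 54.8 CPM in TRAP1 KO and had a WT response of 0.21. Egln1, the oxygen sensor that marks HIF-1 alpha, and P4ha1, a collagen prolyl hydroxylase, had TRAP1 KO responses of 1.11 and 0.73. Of 28 tested genes of this list 5 were in a class (17.9%), close to the 15.2% of all genes tested, while 16 changed in the same direction in both genotypes by more in TRAP1 KO (all genes tested: 3.44%). Il18, a cytokine of the IL-1 family, and Ctsc, the cathepsin that activates granule proteases, were gained with TRAP1 KO responses of 1.19 and 1.38.

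**Figure D4:**
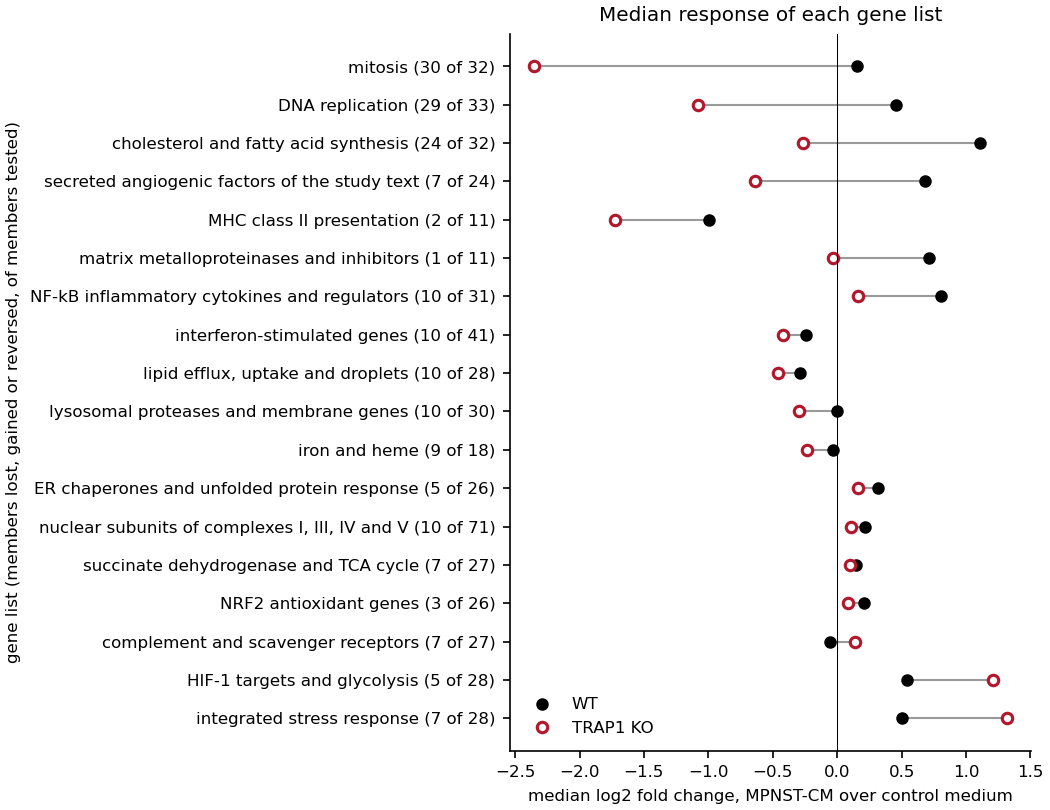
Each row is a gene list, with its median log2 fold change in MPNST-CM over control medium in WT (filled) and TRAP1 KO (open) and, in brackets, how many of its tested members were lost, gained or reversed. The mitosis, DNA replication, and cholesterol and fatty acid synthesis lists have the widest gaps, with TRAP1 KO on the lower side, and the integrated stress response and HIF-1 lists have TRAP1 KO on the higher side.

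Among genes that fell in TRAP1 KO alone outside the cell cycle, Fam20c, a kinase of secreted proteins, had the smallest p of the interaction among the named genes. Its WT libraries read 81.7, 90.2 and 82.8 CPM in control medium and 81.6, 73.3 and 77.3 CPM in MPNST-CM, and its TRAP1 KO libraries 198, 204 and 216 CPM in control medium and 18.7, 19.3 and 18 CPM in MPNST-CM. TRAP1 KO was above all WT libraries in control medium and below all of them in MPNST-CM. The TRAP1 KO response was -3.46 (SE 0.08, edgeR adjusted p = 6.49e-21) and the WT response -0.13 (SE 0.08, adjusted p = 0.239).

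Acod1, the enzyme that makes itaconate, was at 24.3, 25.9 and 24.9 CPM in WT control medium, 30.9, 32.6 and 35.6 CPM in WT MPNST-CM, 51, 63 and 61.1 CPM in TRAP1 KO control medium and 7.99, 7.66 and 12.6 CPM in TRAP1 KO MPNST-CM. Its TRAP1 KO response was -2.63 (SE 0.17, edgeR adjusted p = 9e-13). The WT media did not overlap either, but the WT response of 0.40 missed the threshold (adjusted p = 0.0652). Itgb3, the beta chain of the vitronectin receptor, fell in TRAP1 KO by 6.51-fold, from 10.8, 8.25 and 8.81 to 0.624, 1.46 and 2.17 CPM. Dnmt3aos, an RNA antisense to Dnmt3a, went from 23.5, 22.3 and 15.5 to 1.12, 0.122 and 0.382 CPM in TRAP1 KO. The library kit keeps strand, but the strand setting of the counting is not given in the sources used here.

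Interferon-stimulated genes leaned to a lower response in TRAP1 KO. Rsad2, an antiviral enzyme, read 496, 518 and 501 CPM in WT control medium, 471, 439.9 and 420.3 CPM in WT MPNST-CM, 1109.9, 1230.0 and 1171 CPM in TRAP1 KO control medium and 251, 246 and 253 CPM in TRAP1 KO MPNST-CM. The TRAP1 KO libraries were the highest of the 12 in control medium and the lowest in MPNST-CM. Cmpk2, its neighbor in the genome, had a TRAP1 KO response of -2.27 (SE 0.10, edgeR adjusted p = 8.13e-16), beside -2.23 for Rsad2 (SE 0.08, adjusted p = 2.53e-17). Parp14 had a TRAP1 KO response of -0.92, and Irf7, an interferon regulatory factor, rose in TRAP1 KO instead, from 172, 195 and 189 to 301, 323 and 315 CPM. Of 41 tested genes of this list 10 were in a class (24.4%, all genes tested: 15.2%), 8 that fell in TRAP1 KO (all genes tested: 7.24%) and 2 that rose (4.69%). Another 9, among them Ifit2, Mx1 and Cxcl10, fell in both genotypes by more in TRAP1 KO. The interaction thus passed in the lower direction for 17 genes (all genes tested: 11.5%) and in the higher for 2 (8.17%). In control medium 29 of the 41 were higher in TRAP1 KO and 1 lower. Of all genes tested 16.6% passed there in either direction and 7.97% in the lower.

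Of the genes named from the lists of respiratory complexes and the tricarboxylic acid cycle, Acod1 and Pcx had TRAP1 KO responses larger than 1 in size on the log2 scale, and the others smaller ones. Sdha, the flavoprotein of succinate dehydrogenase, was at 187, 205 and 221 CPM in WT control medium, 204, 220.0 and 211 CPM in WT MPNST-CM, 207, 229 and 214 CPM in TRAP1 KO control medium and 153, 169 and 178 CPM in TRAP1 KO MPNST-CM. Its TRAP1 KO response was -0.38 (SE 0.08, edgeR adjusted p = 0.000355) and its interaction -0.43 (adjusted p = 0.00544). The other subunits, Sdhb, Sdhc and Sdhd, did not pass the interaction (edgeR adjusted p = 0.336, 0.200 and 0.827). Sdhaf4, an assembly factor of the complex, was gained and rose in TRAP1 KO by 0.51. Idh1, the cytosolic isocitrate dehydrogenase, was reversed with 0.34 in WT and -0.19 in TRAP1 KO, the latter at the edge of the threshold (adjusted p = 0.0499). Of 71 nuclear genes of complexes I, III, IV and V, 10 were in a class (14.1%, all genes tested: 15.2%). The list of succinate dehydrogenase, the tricarboxylic acid cycle and linked enzymes had 7 of 27 (25.9%). Among these 7 were Acod1, Pcx and the cytosolic Idh1, which are not enzymes of the cycle itself. Pcx, pyruvate carboxylase, stood at 0.981, 0.782 and 0.684 CPM in WT control medium, 1.74, 0.922 and 1.4 CPM in WT MPNST-CM, 1.25, 1.44 and 0.395 CPM in TRAP1 KO control medium and 0.25, 0 and 0 CPM in TRAP1 KO MPNST-CM, so that its interaction of -4.13 (SE 1.06, edgeR adjusted p = 0.00561) rests on low counts. Ndufb3, a subunit of complex I, rose in TRAP1 KO by 0.45. Atp5a1, Atp5b and Atp5k, subunits of ATP synthase, had interactions between -0.48 and -0.37.

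Gained genes were also named from the lists of lysosome, iron, matrix and antioxidant genes. Gpnmb, an abundant lysosomal glycoprotein, had a TRAP1 KO response of -0.46, from 8724, 9528 and 10348 to 6548, 7163 and 7010.5 CPM, and Atp6v1a and Timp2 responded there by -0.50 and -0.55. Trf, transferrin, and Gclm, a subunit of the glutathione-forming ligase, rose in TRAP1 KO by 0.51 and 0.72, while Tkt, transketolase, and Gstm1, a glutathione transferase, responded by -0.46 and -0.40. Of 26 tested NRF2 genes 3 were in a class (11.5%) and of 11 matrix metalloproteinases and inhibitors 1 (9.09%), both below the 15.2% of all genes tested.

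Genes that fell in WT and were lost in TRAP1 KO were the smaller side of that class. Zfp36l1, an RNA-binding protein that speeds mRNA decay, read 226, 184 and 180.1 CPM in WT control medium and 108, 99 and 98.1 CPM in WT MPNST-CM, and 303, 228 and 222 CPM in TRAP1 KO control medium and 343, 274 and 279 CPM in TRAP1 KO MPNST-CM. The WT media did not overlap, the TRAP1 KO media did, and the interaction was 1.20 (SE 0.24, edgeR adjusted p = 0.000751). Peli2, an E3 ligase of Toll-like receptor signaling, went from 32.9, 31.5 and 27.6 to 10.9, 17.4 and 12.8 CPM in WT and had a TRAP1 KO response of 0.07 with a 95% interval of -0.21 to 0.34. Gpr183, a receptor for oxysterols, fell in WT from 64, 82.1 and 69.9 to 22.6, 39.3 and 35.3 CPM. Its TRAP1 KO libraries were already low in control medium, at 21.1, 26.6 and 29.6 CPM, and read 23.6, 23.8 and 27.4 CPM in MPNST-CM. Gbp8, one of the guanylate-binding proteins, Zc3h6 and N4bp2l1 had interactions of 1.87, 0.98 and 0.93. Mrps6, a mitochondrial ribosomal protein whose locus overlaps that of Slc5a3 on the same strand, rose in WT by 1.46 and was lost, and its count is uncertain for that reason.

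Of the 16 markers that the study's text names for this comparison, 5 were in a class (all genes tested: 15.2%). They were Tnf, Ccl3 and Pdgfa among the reversed (all genes tested: 2.07%) and Cd163 and Fcgr1 among the gained genes (9.86%). The study reported Tnf, Ccl3, Pdgfa, Mmp8 and Mmp10 from this RNA-seq, so their calls are not independent of it. Cd163, a scavenger receptor, was at 6.99, 6.51 and 5.47 CPM in WT control medium, 5.09, 5.19 and 5.07 CPM in WT MPNST-CM, 4.63, 3.8 and 5.26 CPM in TRAP1 KO control medium and 8.99, 11.7 and 10.4 CPM in TRAP1 KO MPNST-CM (interaction 1.49, SE 0.31, edgeR adjusted p = 0.000931). Mrc1, Vegfa, Hif1a, Il1b and Mmp8 rose in both genotypes by more in TRAP1 KO, and Arg1, Clec10a, Mmp9, Nos2 and Mmp10 did not pass the interaction. Arg2 had 0 to 4 counts a library and was not tested.

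The same contrast in macrophages first polarized with IL-4 (M2, 24 h at 10 ng/mL) used 12 other libraries of the same batch. It passed for 2751 genes (20.2%), 9.36% higher and 10.8% lower in TRAP1 KO. The reversed genes that rose in WT Mφ had the largest share that passed in M2 in the same direction, 158 of 212 (74.5%). The shares were 479 of 773 (62.0%) for gained genes that fell, 36 of 70 (51.4%) for reversed genes that fell in WT, 283 of 569 (49.7%) for gained genes that rose, 109 of 275 (39.6%) for lost genes that rose and 60 of 168 (35.7%) for lost genes that fell. In the opposite direction 2, 13, 7, 5 and 4 genes passed in M2, for reversed genes that fell in WT, gained genes that fell, gained genes that rose, lost genes that rose and lost genes that fell.

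The sterol and cell cycle lists carried over, with median interactions in M2 of -1.63 for cholesterol and fatty acid synthesis, -1.27 for DNA replication and -2.49 for mitosis. Scd1, Fdps and Plk1 had interactions in M2 of -3.53, -2.69 and -2.74. Ccr2 did not carry over, with an interaction in M2 of -0.24 (edgeR adjusted p = 0.388), nor did Ccl4 (-0.24, adjusted p = 0.305) or Itgam (0.09, adjusted p = 0.799). Rsad2 and Cmpk2 turned, with 1.38 and 1.55 in M2 (adjusted p = 2.05e-09 and 5e-08) against -2.04 and -2.07 in Mφ. For the interferon-stimulated list the median interaction was -0.35 in Mφ and 1.47 in M2, where 38 of 41 genes passed in the higher direction. The difference between the M2 and the Mφ interaction was not tested.

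**Figure D5:**
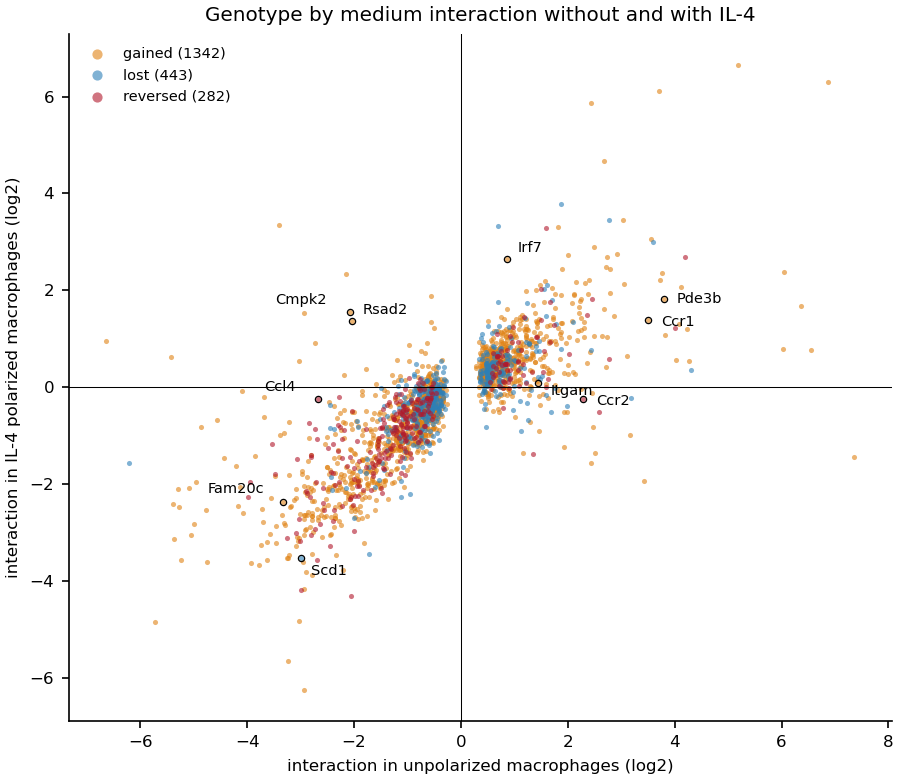
Each point is a lost (blue), gained (orange) or reversed (red) gene, placed by its interaction of genotype and medium on the log2 scale in unpolarized macrophages (horizontal) and in IL-4 polarized macrophages (vertical). The points run from lower left to upper right, the gap at 0 on the horizontal axis comes from the choice of genes there, and Rsad2 and Cmpk2 lie at upper left with opposite signs.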

How the data were processed

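Total RNA of 27 libraries was profiled with QuantSeq 3′ mRNA-seq (75 bp single reads), of which the 12 Mφ libraries of batch1 are described here. The deposited table holds raw read counts per gene that the authors made with Trimmomatic, HISAT2, SAMtools and featureCounts, on mm39 per the labels. Versions and the strand setting are not given in the sources used here. Of its 32 columns, 27 matched a described library and 5 were not used.

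The 24 libraries of batch1 were fitted together (8 groups, TMM, filterByExpr) with edgeR 4.0.16 in R 4.3.3, by the robust quasi-likelihood test with Benjamini-Hochberg adjustment at 0.05, which left 13614 of 50559 genes. Every adjusted p in the text comes from that fit unless said otherwise. DESeq2 1.42.0, other scalings, filters, library sets, thresholds, left-out libraries and a replicate block were alternatives. The calling of lost, gained and reversed genes was tested on simulated data. No 2 replicate libraries agreed within counting noise (chi-square per degree of freedom 2.11 to 26.5 over genes with at least 20 counts).

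Named genes were Trap1, the 6 with the largest interaction in each class and direction (mean of at least 20 CPM in 1 group, media not overlapping where the response passed, no predicted genes or pseudogenes), up to 4 class members with the smallest p from each gene list, and 16 markers of the study's text. A gene chosen by this rule is not reported here. Members and lists were chosen with earlier results of these data known. Of 537 listed genes 531 were in the table, 18 under an older symbol, and 507 were tested.

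The pairing check used deviations from the group means across genes. All 18 pairs of Mφ libraries of different groups with the same replicate number had a correlation over 0.1 (0.131 to 0.504), but number 1 carried this, with 0.377 to 0.504 among libraries numbered 1. Numbers 2 and 3 correlated with each other (0.122 to 0.254) as with themselves (0.131 to 0.226), and the difference of number 2 and number 3 did not correlate between groups (-0.0394 to 0.0187 over 6 pairs of groups). The mean over the 36 other pairs was -0.132, and 7 of 12 libraries correlated best with their own number. Promoter sequences were matched to genes by symbol in RefSeq (GRCm38.p6), with 9906 of the genes tested found, and no coordinates were converted.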

Additional observations from a re-analysis of the deposited data

Results flagged for a closer look

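The responses of WT and TRAP1 KO Mφ to MPNST-CM differed for 2683 genes by the interaction term of edgeR's quasi-likelihood test, and 443 of these were lost, 1342 gained and 282 reversed. In IL-4 polarized macrophages the same term passed for 2751 genes. These counts were set apart because the effect of the medium differed between the genotypes by a test of the difference itself. The direction leaned to lower responses in TRAP1 KO, with 1571 genes lower and 1112 higher in Mφ. Groups of 3 libraries were too small for a test of single outlying libraries.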

How the results depend on the processing

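No gene of the lost, gained or reversed class changed the sign of its interaction under any alternative run. With all 27 libraries in one fit, the interaction passed for 653 genes in Mφ (222 higher, 431 lower) and 180 in M2, and the classes held 124 lost, 444 gained and 26 reversed genes. In that fit 958 genes passed for the WT response, 2647 for the TRAP1 KO response, 854 for genotype in control medium and 3097 for genotype in MPNST-CM. With batch as a covariate these became 777 (258 higher, 519 lower), 269 in M2, 180 lost, 480 gained and 45 reversed, with 1267, 2826, 843 and 3297 for the responses and genotype contrasts. Batch2 holds 1 Mφ library and 2 M2 libraries whose labels were in doubt when the fits were planned, so it was kept to alternatives. The cause of the drop was not tested. The share of higher calls was 41.4% in the fit reported, 34% with all 27 libraries and 33.2% with the covariate.

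The 16 libraries numbered 2 and 3, an alternative chosen after seeing the data, gave 2857 genes in the interaction (1150 higher, 1707 lower). The replicate block in the Mφ libraries alone gave 1798 genes in the higher direction, 724 lost and 517 reversed, where the same libraries without it gave 1060, 389 and 228, and the block in the 24 libraries gave 3084 in the interaction, 526 lost, 1483 gained and 361 reversed. The block changed the call of no named gene. Requiring an absolute log2 difference of 1 left 1213 genes (427 higher, 786 lower), 99 lost, 646 gained and 187 reversed, which follows from its construction. A threshold of 0.01 left 1771 genes (675 higher), 241 lost and 121 reversed, with 1746 for the WT response, 1493 for genotype in control medium and 1659 in M2.

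Leaving out each Mφ library in turn gave 2357 to 2590 genes in the interaction (935 to 1119 higher, 1391 to 1534 lower), 330 to 446 lost, 1144 to 1424 gained and 194 to 262 reversed, 2199 to 2939 for the WT response, 3800 to 4664 for the TRAP1 KO response, 1753 to 2437 and 4427 to 5268 for the genotype contrasts in control medium and MPNST-CM, and 2634 to 3015 in M2. Of 107 named genes that passed, 47 passed under all 21 alternatives and 56 missed the threshold in the 27-library fits alone. Atp5b, Atp5k, Timp2 and Gstm1 also missed it elsewhere. Markers outside the classes changed sign without 1 replicate, Arg1 (-0.14 to 1.51 over such fits) and Mmp10 (-2.07 to 2.07), at 4.2 CPM or less.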
